A study of Mus musculus with 16 samples.

Results

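Matrix metalloproteinases (MMPs) and the proteins that restrain them were followed in 4 liver cell types. The set was 9 genes, given as a list of symbols, out of the 47729 genes counted in each library: the proteases Mmp2, Mmp9, Mmp13, Mmp14 and Mmp19, the secreted inhibitors Timp1, Timp2 and Timp3, and the membrane-bound inhibitor Reck. RNA had been sequenced from sinusoidal endothelial cells (ECs), hepatic stellate cells (HSCs), Kupffer cells (KCs) and hepatocytes (HEPs), with 2 libraries labelled wild-type (WT) and 2 labelled knock-out (KO) for each cell type, 16 in all. The KO mice carried loxP sites around exon 7 of Zeb2, a transcription factor that can repress or activate genes. They also carried tamoxifen-inducible Cre driven by the endothelial Cdh5 promoter, on an eGFP reporter background. WT mice were littermates without Cre, and all mice received 2 mg tamoxifen per day on 5 days. By the study's methods the mice were males of 8 weeks and RNA was examined 2 weeks after the last injection, in livers without a toxin. Hepatocytes had been separated by centrifugation, and the other cells sorted from the remaining fraction by vitamin A autofluorescence (HSCs), F4/80 (KCs) or the pan-endothelial antigen Meca32 (ECs). Whether a library came from 1 mouse or from pooled mice was not stated in the sources used here, so that the p-values measure the spread between these libraries only. The cell types were isolated together by the study's methods, so that 1 liver may have given several of the libraries, and the tests across cell types treated all of them as independent.

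MMPs are zinc-dependent proteases that cut collagens, basement membrane and cell surface proteins. Most are secreted as inactive precursors, and tissue inhibitors of metalloproteinases (TIMPs) block the active site, while Reck is anchored to the membrane and restrains several MMPs at the cell surface. In the liver, HSCs lie between the sinusoidal endothelium and the hepatocytes and are the main makers of matrix, and MMPs and TIMPs from several cell types are known to take part in scar formation and its resolution.

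On GRCm38, with the coordinates of GENCODE mouse release 21, the proteases are Mmp2 (ENSMUSG00000031740, chr8:92827291-92853420, plus strand), Mmp9 (ENSMUSG00000017737, chr2:164940780-164955850, plus strand), Mmp13 (ENSMUSG00000050578, chr9:7272514-7283331, plus strand), Mmp14 (ENSMUSG00000000957, chr14:54431612-54445364, plus strand) and Mmp19 (ENSMUSG00000025355, chr10:128790910-128800824, plus strand). The inhibitors are Timp1 (ENSMUSG00000001131, chrX:20870166-20874735, plus strand), Timp2 (ENSMUSG00000017466, chr11:118301069-118355740, minus strand), Timp3 (ENSMUSG00000020044, chr10:86300372-86349506, plus strand) and Reck (ENSMUSG00000028476, chr4:43875530-43944806, plus strand).

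Each library held between 12872706 and 15690506 reads assigned to genes. A floor of 3 counts, equal to 0.191 to 0.233 CPM (counts scaled to a common library total), was set for what such depth can show, and it covers counting error only. Zeb2 itself was not lower in the ECs labelled KO, with 199 and 130 CPM against 106.5 and 105.7 CPM under the WT label (log2 fold change 0.62, SE 0.24, adjusted p = 0.303, edgeR), and a gene-wide count cannot tell whether exon 7 was present. The study assessed the deletion by separate assays, which were not analysed here, and groups are called by their labels. The defining markers of each sorted cell type stood highest in that type. Hepatocyte RNA was not even across the sorted cells: the median level of 10 hepatocyte markers, as a share of that in WT hepatocytes, was 11.1% and 23.0% in WT ECs against 2.65% and 1.95% in ECs labelled KO, 3.05% and 7.05% in WT HSCs against 0.549% and 1.22% in HSCs labelled KO, and 5.17% and 8.09% in WT KCs against 9.44% and 11.5% in KCs labelled KO. In KCs labelled KO, 12 genes known to respond to cell dissociation summed to 6990 to 11100 CPM, below the 23000 to 33600 CPM of WT KCs. They were also lower in HEPs labelled KO, at 3100 to 4530 CPM against 5580 to 5760 CPM under the WT label. In ECs and HSCs these sums overlapped between labels.

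Promoter sequences are shown for 4 members on which the results turn: Mmp13, which stood highest in KCs labelled KO, Timp2 and Timp3, which did not overlap between labels in ECs without passing the adjusted threshold, and Reck, which was found mainly in HSCs. RefSeq windows of 300 bases on GRCm38.p6, from 250 bases before the start site to 50 bases into the gene, were matched for 6 of the 9 members by symbol. Mmp2, Mmp9 and Mmp19 were not among them. Capitals mark matches on either strand to CACCTG (the E-box that Zeb proteins bind), TGANTCA (the AP-1 site of Fos and Jun proteins), GGGCGG (a GC box) or the core promoter motif TATAAA.
Mmp13, chr9:7272264-7272563, plus strand: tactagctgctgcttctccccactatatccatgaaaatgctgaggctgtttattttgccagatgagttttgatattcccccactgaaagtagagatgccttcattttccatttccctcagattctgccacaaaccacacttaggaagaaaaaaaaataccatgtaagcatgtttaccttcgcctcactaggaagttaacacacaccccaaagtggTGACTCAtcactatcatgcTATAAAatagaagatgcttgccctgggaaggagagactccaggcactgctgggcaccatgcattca
Timp2, chr11:118355362-118355661, minus strand: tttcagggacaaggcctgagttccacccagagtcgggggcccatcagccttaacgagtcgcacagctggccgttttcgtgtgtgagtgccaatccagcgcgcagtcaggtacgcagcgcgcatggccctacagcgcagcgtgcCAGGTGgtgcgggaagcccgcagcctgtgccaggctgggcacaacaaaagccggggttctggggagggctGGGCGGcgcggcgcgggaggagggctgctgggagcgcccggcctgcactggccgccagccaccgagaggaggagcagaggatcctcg
Timp3, chr10:86300162-86300461, plus strand: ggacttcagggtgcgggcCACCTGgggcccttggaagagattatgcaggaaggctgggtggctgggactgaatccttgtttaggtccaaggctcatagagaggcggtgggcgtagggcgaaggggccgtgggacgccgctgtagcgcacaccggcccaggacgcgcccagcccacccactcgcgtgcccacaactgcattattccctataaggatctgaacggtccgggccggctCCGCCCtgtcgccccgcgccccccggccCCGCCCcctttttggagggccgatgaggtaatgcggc
Reck, chr4:43875280-43875579, plus strand: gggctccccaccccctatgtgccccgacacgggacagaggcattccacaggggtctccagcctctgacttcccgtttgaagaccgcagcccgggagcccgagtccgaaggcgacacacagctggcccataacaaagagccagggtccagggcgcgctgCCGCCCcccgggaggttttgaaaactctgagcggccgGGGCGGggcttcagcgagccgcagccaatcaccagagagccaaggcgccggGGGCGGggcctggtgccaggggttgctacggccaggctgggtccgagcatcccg
The Mmp13 window held 1 AP-1 match beginning at position -35 from the start site and 1 core promoter match at -16, and no GC box. The Timp2 and Timp3 windows each held 1 CACCTG match, at -107 on the opposite strand in Timp2 and at -232 in Timp3. The Mmp13 window and the matched windows not shown, those of Timp1 and Mmp14, held 0 CACCTG matches. Timp1 also lay lower without overlap in ECs labelled KO. The Reck window held 3 GC boxes and neither CACCTG nor TGANTCA. Of the 32851 mouse windows of that length, 20.2% held CACCTG, 7.81% TGANTCA, 35.7% GGGCGG and 13.6% TATAAA, and a match describes the letters only.

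To ask which cell type each member came from, the 8 WT libraries were compared in 1 edgeR fit with a mean for each cell type. A member was assigned to a cell type when it was higher there than in each of the 3 others at an adjusted p under 0.05. This held for 4 of the 9 members: Mmp2 and Reck in HSCs, Mmp9 in KCs and Mmp19 in HEPs. Of the 15979 genes tested, 22.5% met the same rule for any cell type, with 3.14% for HSCs, 4.24% for KCs, 13.1% for HEPs and 1.98% for ECs. No member was assigned to ECs. By pair, 2 members differed between ECs and HSCs (10.2% of all genes), 6 between ECs and KCs (17.3%), 7 between ECs and HEPs (43.6%), 6 between HSCs and KCs (21.2%), 8 between HSCs and HEPs (41.8%) and 6 between KCs and HEPs (40.6%). The plot of levels by library shows the 9 genes on a common log axis. Fold changes against hepatocytes depend on the scaling, because TMM normalization sets the median gene of ECs against HEPs at a log2 difference of 0.04 and library totals set it at 1.38, and the corresponding medians were 0.18 and 1.25 for HSCs and 0 and 0.93 for KCs. Levels below are CPM, which use library totals, and log2 fold changes are those of the TMM fit.

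**Figure D1:**
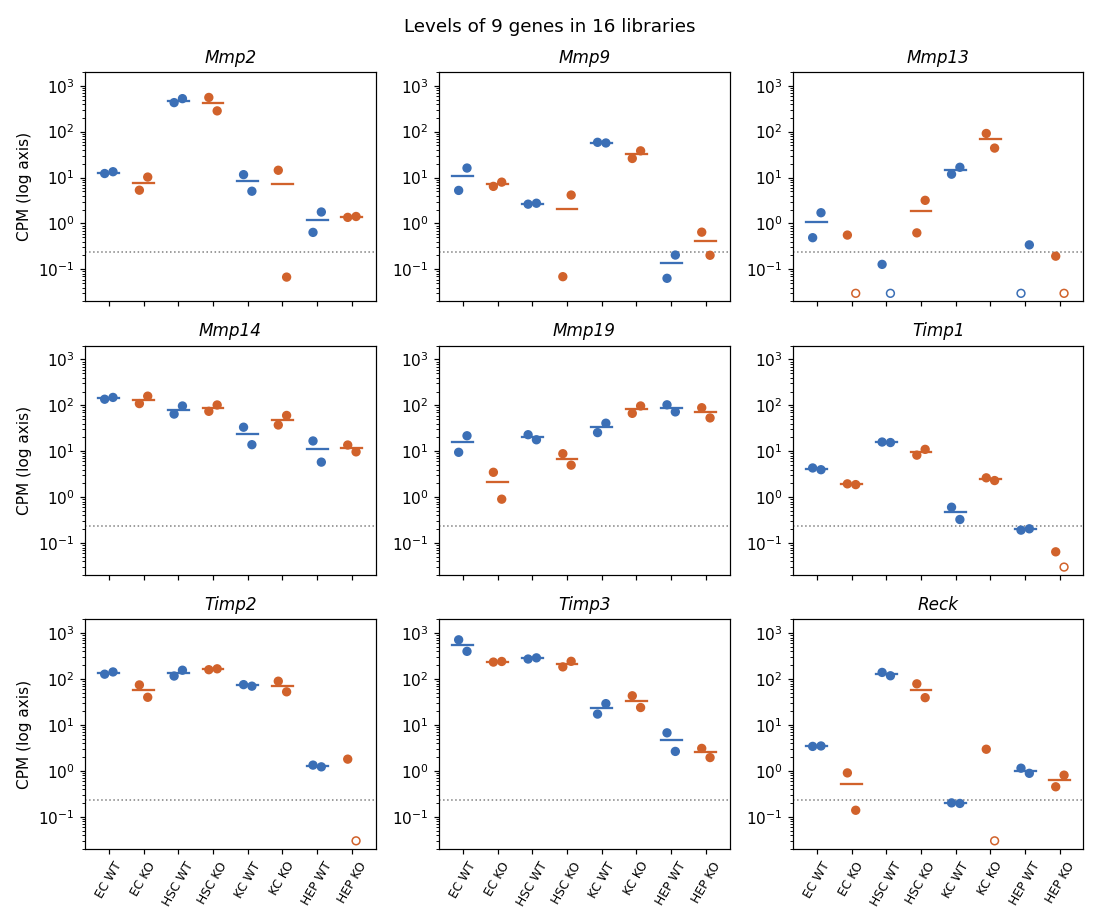
Level of each member in CPM (log axis) in the 16 libraries, by cell type and label. Points are libraries, horizontal bars the mean of 2 libraries where both had counts, open points libraries with 0 counts drawn at the foot of the axis, and the dotted line is the highest floor of 3 counts (0.233 CPM). Mmp2 and Reck stood highest in HSCs, Mmp9 and Mmp13 in KCs, Timp3 and Mmp14 in ECs, and Mmp19 in HEPs, among the WT groups.

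Mmp2, the gelatinase that degrades denatured collagen and basement membrane, was found chiefly in HSCs. It reached 428 and 522 CPM in the WT HSC libraries (475 ± 66.7, SD, n = 2), against 12.2 and 13.4 CPM in ECs, 11.5 and 5.02 CPM in KCs, and 0.637 and 1.77 CPM in HEPs. HSCs and the other types did not overlap, and the HSC mean made up 95.5% of the sum of the 4 WT means. ECs stood at a log2 fold change of -5.49 from HSCs (SE 0.63, adjusted p = 0.00178), and HSCs stood higher than each other cell type under all 14 alternatives. ECs and KCs, the next in order, did not differ beyond their spread (adjusted p = 0.834).

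Mmp9, the second gelatinase and a product of macrophages and neutrophils, was highest in KCs. WT KCs held 58.4 and 56.5 CPM (57.5 ± 1.35), against 5.23 and 16.1 CPM in ECs, 2.63 and 2.75 CPM in HSCs, and 1 and 3 counts in HEPs. The KC libraries lay above all others, and ECs stood at a log2 fold change of -2.83 from KCs (SE 0.56, adjusted p = 0.0117). The assignment to KCs held under 12 of 14 alternatives and was lost without the WT KC library 31 and when the KO-labelled libraries were used. The 10 neutrophil markers summed to 92.4 to 95.5 CPM in WT KCs, with Cxcr2 at 0, and to 33.8 to 174 CPM in WT ECs, with Ly6g at 0, and their part in the Mmp9 values was not tested.

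Mmp13, an interstitial collagenase, was led by KCs as well, at 11.8 and 16.7 CPM (14.3 ± 3.46). It was at 0.488 and 1.71 CPM in WT ECs, at 2 and 0 counts in HSCs and at 0 and 5 counts in HEPs. The level in HSCs could not be told from 0 at this depth, and 1 HEP library lay above the floor of 3 counts. KCs passed the test against HSCs (adjusted p = 0.0116) and HEPs (adjusted p = 0.0174) but not against ECs (log2 fold change of ECs from KCs -4.08, SE 1.25, adjusted p = 0.0602), and 6 of 14 alternatives assigned Mmp13 to KCs. The calls were lost without the WT HSC library 40 (adjusted p = 0.0622) and without the WT HEP library 29 (adjusted p = 0.0505), respectively.

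Mmp14, the membrane-type protease that activates the Mmp2 precursor at the cell surface, had no single source. It stood at 136 and 149 CPM in WT ECs (142 ± 9.08), 64.6 and 96.9 CPM in HSCs, 33.4 and 13.9 CPM in KCs, and 16.8 and 5.80 CPM in HEPs. ECs were higher than KCs (log2 fold change 2.17, SE 0.59, adjusted p = 0.0411) and HEPs (adjusted p = 0.0153), and did not pass the test against HSCs (log2 fold change 0.54, SE 0.57, adjusted p = 0.592). When a library was left out, ECs against KCs ran from 1.47 to 3.10 and the call was lost without WT ECs 34 or 38, WT KCs 39, or WT HSCs 32 or 40 (adjusted p up to 0.151). The call against HEPs was lost without WT HEPs 33 (1.80, adjusted p = 0.0817).

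Mmp19, a secreted protease with broad specificity for basement membrane, was the member of hepatocytes. WT HEPs held 103 and 72.0 CPM (87.3 ± 21.7), WT KCs 25.5 and 40.9 CPM, HSCs 22.9 and 17.8 CPM, and ECs 9.49 and 21.8 CPM. The log2 fold change of KCs from HEPs was -2.39 with TMM (SE 0.42, adjusted p = 0.00294) and -1.40 with library totals only (adjusted p = 0.0373). Its assignment to HEPs held under 13 of 14 alternatives and was lost with the KO-labelled libraries, where KCs and HEPs overlapped. In WT ECs, Mmp19 stood at 10.9% and 24.9% of its WT hepatocyte level, close to the 11.1% and 23.0% of the hepatocyte markers in the same libraries.

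Among the inhibitors, Timp3, which binds to the extracellular matrix, was most abundant in ECs by mean, at 717 and 403 CPM (560 ± 223), followed by HSCs at 274 and 290 CPM (282 ± 11.8). WT KCs held 17.3 and 29.2 CPM and HEPs 6.76 and 2.66 CPM. ECs and HSCs did not overlap but did not differ beyond the spread (log2 fold change 0.72, SE 0.46, adjusted p = 0.354), and both passed the test against KCs, by log2 fold changes of 4.26 and 3.53. Timp2, which inhibits MMPs and also takes part in activating the Mmp2 precursor with Mmp14, was level between ECs (128 and 143 CPM) and HSCs (117 and 156 CPM), with WT KCs at 75.8 and 70.1 CPM. HEPs held 1.34 and 1.23 CPM of Timp2, and each of the other 3 types was higher than HEPs, the smallest log2 fold change being 4.86 for KCs (SE 0.33, adjusted p = 0.000193).

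Timp1, the inducible inhibitor widely used as a sign of fibrogenic activity, was the least abundant of the 3 TIMPs per kb of exon in each WT cell type. WT HSCs held 15.9 and 15.5 CPM (15.7 ± 0.281), ECs 4.33 and 3.96 CPM, KCs 0.604 and 0.326 CPM, and each HEP library 3 counts. HSCs were higher than KCs (log2 fold change 4.96, SE 0.71, adjusted p = 0.00232), while the step from ECs to HSCs missed the threshold (log2 fold change of ECs from HSCs -2.20, SE 0.61, adjusted p = 0.0594). Of the 14 alternatives, 5 assigned Timp1 to HSCs. Timp1 lies within Syn1 and Timp3 within Syn3, and reads shared by overlapping genes could be split or dropped by the counting. Syn1 was at 29.2 and 27.4 CPM in WT KCs, where Timp1 was low, and Syn3 at 3.56 and 15.3 CPM in WT ECs, where Timp3 stood at 717 and 403 CPM.

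Reck, the membrane-anchored inhibitor, was the member with the largest share in a single cell type. WT HSCs held 140 and 118 CPM (129 ± 15.3), or 96.5% of the sum of the 4 WT means. ECs held 3.42 and 3.50 CPM, HEPs 1.15 and 0.886 CPM, and each KC library 3 counts. ECs stood at a log2 fold change of -5.5 from HSCs (SE 0.33, adjusted p = 0.000539), and HSCs were higher than each other type under all 14 alternatives. HSC markers stood at 1.33% and 1.77% of their WT HSC level in WT ECs, where Reck was at 2.65% and 2.71% and Mmp2 at 2.57% and 2.81%.

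Per kb of exon, the make-up of the MMP family differed by cell type. Across all 23 MMP genes counted, Mmp14 made up 52.5% to 63.5% of the summed CPM per kb in WT ECs, Mmp2 70.1% to 72.5% in HSCs, and Mmp19 82.9% to 84.2% in HEPs. In WT KCs the largest share was that of Mmp27, a little-studied family member, with 35.6% to 42.6%, before Mmp9 with 20.6% to 22.1%. The summed TIMP level was 90.7 to 126 CPM per kb in WT ECs, 81.5 to 93.2 in HSCs, 22.0 to 22.3 in KCs and 0.953 to 1.39 in HEPs. Timp3 led in ECs, Timp2 and Timp3 were close in HSCs, and Timp2 made up 82.0% to 87.4% in KCs. The stacked plot of the members shows this for each library.

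**Figure D2:**
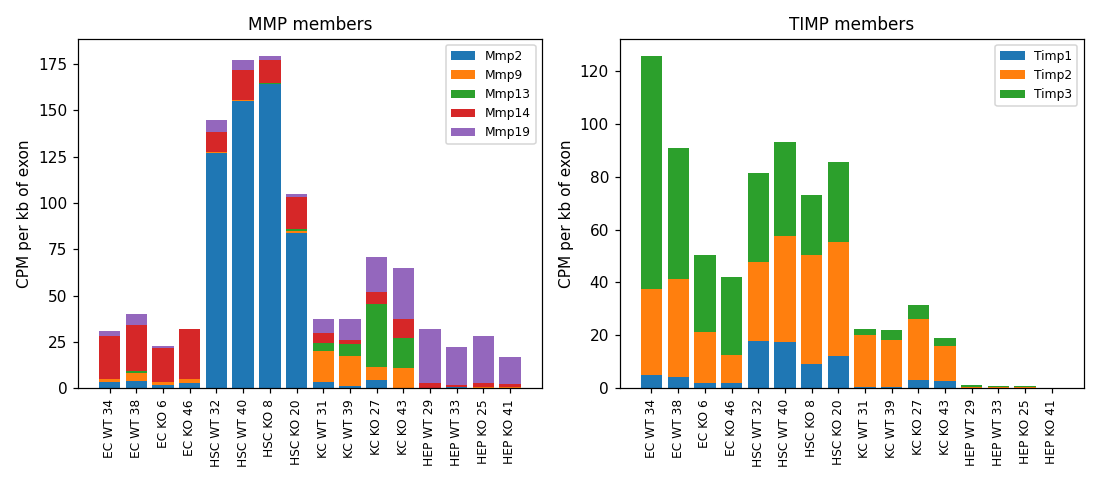
Summed level of the 5 MMP members (left) and the 3 TIMP members (right), in CPM per kb of exon, for each of the 16 libraries, named by cell type, label and replicate number. HSC libraries carried most MMP signal as Mmp2, WT ECs the highest mean TIMP signal, with 1 WT EC library (90.7) below 1 WT HSC library (93.2), and HEPs Mmp19 with little TIMP.

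Next, libraries labelled KO were compared with those labelled WT within each cell type. In bulk RNA, fewer cells of a kind and less RNA per cell cannot be told apart. No member passed an adjusted p of 0.05 by edgeR in any cell type. The share of all genes that did was 2.08% in ECs, 0% in HSCs, 0% in KCs and 0% in HEPs. Of the 9 members, 8 were abundant enough to be tested in ECs, 8 in HSCs, 8 in KCs and 6 in HEPs. At an unadjusted p under 0.05, 4 members were found in ECs, 2 in HSCs, 3 in KCs and 0 in HEPs, against 15%, 8.75%, 5.09% and 7.11% of all genes. DESeq2 called 3 members in ECs (all genes 6.72%), 1 in HSCs (2.84%), 1 in KCs (0.519%) and 0 in HEPs (0.277%). With 2 libraries against 2, an exact permutation test of a single gene cannot go below p = 0.333, and none was made. The plot of label differences gives each member with its SE.

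**Figure D3:**
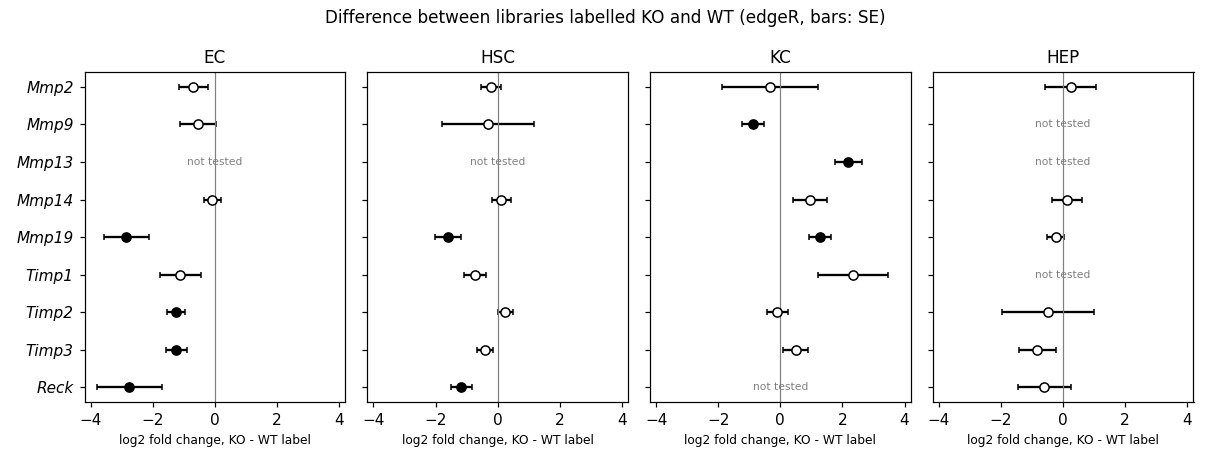
Log2 fold change of libraries labelled KO over those labelled WT (edgeR, TMM) for each member in each cell type, with 2 libraries per group and bars of 1 SE. Filled points have an unadjusted p under 0.05, and none passed an adjusted p of 0.05. The 8 members tested in ECs all lie left of 0, while 5 of the 8 tested in KCs lie right of it.

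In ECs, all 8 members tested had a lower estimate under the KO label, with a median log2 fold change of -1.18 against -0.01 for all genes. Markers of several other cells had lower estimates in the same libraries, namely 10 of 10 for hepatocytes (median -2.94, 10 past the threshold), 9 of 9 for HSCs (-1.54, 1 past it), 7 of 7 for lymphocytes (-1.38), 8 of 9 for neutrophils (-1.79) and 6 of 8 for monocytes and recruited macrophages (-1.19), with none of the last 3 lists past it. KC markers went the other way, with 8 of 10 higher (median 0.86, 0 past the threshold). They summed to 885 to 896 CPM under the KO label and 422 to 695 CPM under the WT label. The part of all these markers in the member values was not tested. For 6 of the 8 members both libraries labelled KO lay below both labelled WT, which 24.1% of all genes did. No member lay above, as 24.2% of all genes did. Timp3 was at 235 and 242 CPM under the KO label against 717 and 403 CPM under the WT label (log2 fold change -1.24, SE 0.33, unadjusted p = 0.00845, adjusted p = 0.155). The KO-labelled libraries were close together and the WT-labelled ones were far apart. Without the WT library 38 the estimate was -1.61 (adjusted p = 0.0163), and without the WT library 34 it was -0.71 (adjusted p = 0.169), so that the call and the size of the difference turned on these libraries.

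Timp2 was at 74.7 and 40.2 CPM in ECs labelled KO against 128 and 143 CPM under the WT label (log2 fold change -1.25, SE 0.30, adjusted p = 0.112). DESeq2 called both Timp2 (adjusted p = 0.00416) and Timp3 (adjusted p = 0.00382), and the summed TIMP level per kb was 42.1 to 50.2 under the KO label against 90.7 to 126 under the WT label. Hepatocytes held 1.28 CPM of Timp2 and 4.71 CPM of Timp3 on average in WT. The 10 EC markers summed to 38600 to 39100 CPM in ECs labelled KO and 27700 to 34500 CPM in WT ECs. By single marker, 5 had a higher and 5 a lower estimate (median log2 fold change 0.01, 0 past the threshold). With 857 hepatocyte-enriched genes removed before normalization the edgeR estimates were -1.30 for Timp2 (adjusted p = 0.227) and -1.28 for Timp3 (adjusted p = 0.248). In the main fit the adjusted p-values were 0.112 and 0.155. The part of hepatocyte RNA in these differences was not tested beyond these values.

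Mmp19 had the lowest estimate in ECs, at 3.48 and 0.904 CPM against 9.49 and 21.8 CPM (log2 fold change -2.85, SE 0.73, unadjusted p = 0.00713, adjusted p = 0.141). The adjusted p was 0.00273 by DESeq2 and 0.0191 with all 16 libraries in 1 fit, and ranged from 0.0599 to 0.325 when a library was left out, with estimates from -4.03 (without ECs labelled KO 6) to -2.16 (without WT ECs 38). As a share of the WT hepatocyte level, Mmp19 was 10.9% and 24.9% in WT ECs and 3.99% and 1.03% in ECs labelled KO. The hepatocyte markers in the same libraries, in the same order, were at 11.1%, 23.0%, 2.65% and 1.95%, with 10 of 10 past the threshold and lower. The part of hepatocyte RNA in the Mmp19 difference was not tested beyond these values.

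**Figure D4:**
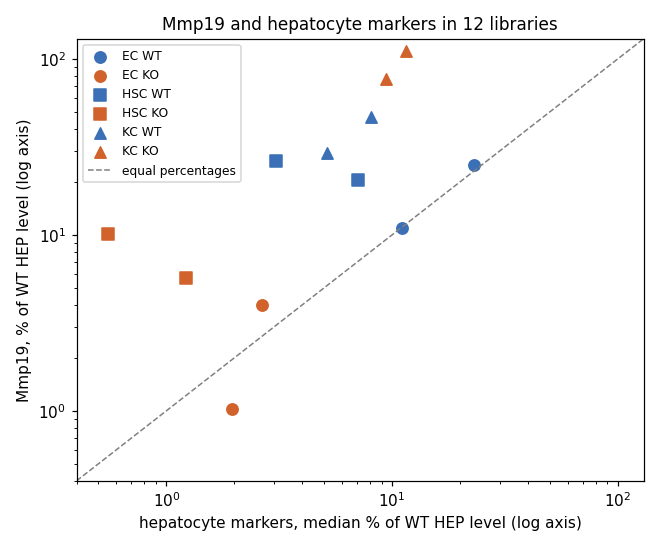
Mmp19 as a percentage of its mean in WT hepatocytes (vertical, log axis) against the median percentage of 10 hepatocyte markers (horizontal, log axis) in the 12 libraries of ECs, HSCs and KCs. Points are libraries and the dashed line marks equal percentages. The 4 EC libraries lie near the line, between 1.03% and 24.9%, and the HSC and KC libraries lie above it.

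Reck was at 13 and 2 counts in ECs labelled KO (0.905 and 0.139 CPM) against 49 and 45 counts under the WT label, a log2 fold change of -2.76 (SE 1.05, adjusted p = 0.296). It was -4.57 without the KO-labelled library 6 and -1.98 without the KO-labelled library 46. HSC markers were lower in the same libraries, at 0.489% and 0.729% of their WT HSC level against 1.33% and 1.77%. All 9 HSC markers tested were lower there, with 1 past the threshold and a median log2 fold change of -1.54, and their part in the Reck values was not tested. Timp1 was at 1.95 and 1.88 CPM against 4.33 and 3.96 CPM (log2 fold change -1.12, SE 0.66), and Mmp2 at 5.29 and 10.2 against 12.2 and 13.4 CPM (log2 fold change -0.70, SE 0.47). Mmp9 overlapped between the labels (log2 fold change -0.55, SE 0.59). Mmp14, the leading MMP of ECs, was at 109 and 159 CPM against 136 and 149 CPM (log2 fold change -0.08, SE 0.27), and Mmp13 was too low to test.

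In HSCs the estimates were closer to 0, with a median of -0.36 over the 8 members tested against 0.02 for all genes. Reck was at 78.9 and 39.4 CPM in HSCs labelled KO against 140 and 118 CPM under the WT label, without overlap (log2 fold change -1.17, SE 0.33, unadjusted p = 0.0149, adjusted p = 0.43). The 10 HSC markers summed to 42600 to 52500 CPM under the KO label and 46900 to 50000 CPM under the WT label. By single marker, 6 had a lower and 4 a higher estimate (median log2 fold change -0.32, 0 past the threshold, where 0% of all genes passed). Their median share of the WT HSC level was 92.9% and 76.7% under the KO label against 103% and 97%. The part of these markers in the Reck values was not tested. Mmp19 was at 8.85 and 4.98 CPM against 22.9 and 17.8 CPM (log2 fold change -1.60, SE 0.41, adjusted p = 0.385), and it was the only member that DESeq2 called in HSCs (adjusted p = 0.0489). As a share of the WT hepatocyte level it was 26.2% and 20.4% in WT HSCs and 10.1% and 5.70% under the KO label, above the 3.05%, 7.05%, 0.549% and 1.22% of the hepatocyte markers.

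Mmp2, the main MMP of HSCs, overlapped between labels in HSCs, at 554 and 283 CPM against 428 and 522 CPM (log2 fold change -0.22, SE 0.33). Timp1 was at 8.23 and 11.0 CPM against 15.9 and 15.5 CPM and Timp3 at 185 and 244 CPM against 274 and 290 CPM, with log2 fold changes of -0.72 (SE 0.36) and -0.41 (SE 0.25). Among the members tested, Timp2 was the one with a higher estimate and no overlap, at 160 and 168 CPM against 117 and 156 CPM (log2 fold change 0.25, SE 0.23). Mmp14 overlapped (log2 fold change 0.12, SE 0.30), and Mmp9 ranged from 1 to 60 counts within the KO label. Mmp13, too low to test, was at 9 and 46 counts in HSCs labelled KO against 2 and 0 under the WT label, also without overlap. Of the 8 members tested, 4 lay lower and 1 higher without overlap, against 19.3% and 20.5% of all genes.

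In KCs the pattern was of the other sign for several members, with a median log2 fold change of 0.72 against -0.02 for all genes. Mmp13 was at 91.0 and 43.7 CPM in KCs labelled KO against 11.8 and 16.7 CPM under the WT label (log2 fold change 2.19, SE 0.43, unadjusted p = 0.0019, adjusted p = 0.933). The labels did not overlap, and leaving out each library gave 1.61 to 2.58, with adjusted p between 0.0759 and 0.666. DESeq2 called it (adjusted p = 0.00218). Mmp19 was at 66.9 and 97.0 CPM against 25.5 and 40.9 CPM (log2 fold change 1.28, SE 0.36, unadjusted p = 0.0108, adjusted p = 0.933), reaching 76.6% and 111% of the WT hepatocyte level while hepatocyte markers stood at 9.44% and 11.5%. Mmp9 was lower instead, at 26.0 and 38.1 CPM against 58.4 and 56.5 CPM (log2 fold change -0.89, SE 0.35, unadjusted p = 0.04, adjusted p = 0.933).

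Of the summed MMP level per kb in KCs, Mmp13 made up 13.4% to 28.8% under the KO label and 5.51% to 8.65% under the WT label, and Mmp9 6.21% to 8.79% and 20.6% to 22.1%. Timp1 was at 2.64 and 2.30 CPM against 0.604 and 0.326 CPM (log2 fold change 2.33, SE 1.13) and Mmp14 at 37.3 and 60.2 CPM against 33.4 and 13.9 CPM (log2 fold change 0.96, SE 0.55). The Mmp14 estimate was 1.88 without the WT library 31 and 0.39 without the WT library 39. Timp2 and Timp3 overlapped between labels, and Mmp2 ran from 1 to 218 counts within the KO label. Counted without overlap, 4 members were higher and 1 lower, against 20.5% and 16.1% of all genes. In the same comparison 11 of 12 dissociation genes, which include Fos and Jun, were lower, and 7 of 7 neutrophil markers tested were higher, summing to 97.2 to 347 CPM under the KO label and 92.4 to 95.5 CPM under the WT label. HSC markers stood at 1.22% and 0.566% of their WT HSC level under the KO label and 0.339% and 0.262% under the WT label, with 9 of 9 tested higher. Higher estimates were also found for 6 of 8 monocyte and recruited macrophage markers (median log2 fold change 1.36) and 9 of 10 EC markers (0.71). No gene of any kind passed the threshold in KCs (0% of all genes), so that the lack of calls says nothing about these 5 lists. The part of these in the KC values was not tested.

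In HEPs the 6 members tested had unadjusted p-values from 0.217 to 0.807. Mmp19 was at 88.8 and 53.2 CPM under the KO label against 103 and 72.0 CPM (log2 fold change -0.24, SE 0.28), and Mmp14 at 13.7 and 9.71 CPM against 16.8 and 5.80 CPM (log2 fold change 0.13, SE 0.49). Timp1 was at 1 and 0 counts against 3 and 3, Timp2 at 28 and 0 counts against 21 and 18, and Mmp9 and Mmp13 did not exceed 10 counts in any HEP library. Among the members tested, Reck alone was separate between labels, at 0.451 and 0.809 CPM against 1.15 and 0.886 CPM, where 23.2% of all genes lay lower and 16.4% higher without overlap.

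Whether a label difference itself differed between cell types was tested over all 16 libraries. The Mmp19 difference in ECs was lower than that in KCs by 4.14 on the log2 scale (SE 0.74, adjusted p = 0.0207), and 2.07% of 17214 genes passed this test for the same pair. No other member passed in any of the 6 pairs by edgeR, where the share of all genes was 0.0349% for ECs against HSCs, 0.0697% for ECs against HEPs, 0.593% for HSCs against KCs, 0.0755% for HSCs against HEPs and 0.0116% for KCs against HEPs. The nearest was Timp1 for ECs against KCs (difference -3.46, SE 0.92, adjusted p = 0.0869), and DESeq2 called Mmp19, Timp1 and Reck for that pair. The Mmp19 call was lost in 5 of 16 fits that left out a library. Only the 4 EC and 4 KC libraries enter this difference, and all 5 fits lacked 1 of them. Each fit without an HSC or HEP library gave -4.02. The 5 were the fits without WT ECs 38 (-3.42), ECs labelled KO 46 (-3.38), WT KCs 31 (-3.80), WT KCs 39 (-4.28) and KCs labelled KO 43 (-3.84).

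The partners of MMPs in matrix turnover were examined as 5 lists. Of 19 other MMPs with Timp4, 8 were abundant enough to test in ECs, 8 in HSCs, 5 in KCs and 2 in HEPs. Of these, 0 passed the threshold in any cell type by edgeR or DESeq2. Over all genes the shares were 2.08%, 0%, 0% and 0% by edgeR and 6.72%, 2.84%, 0.519% and 0.277% by DESeq2. At an unadjusted p under 0.05 there were 1, 1, 0 and 0, against 15%, 8.75%, 5.09% and 7.11% of all genes. Mmp27 was at 66.1 ± 13.1 CPM in WT KCs and 84.7 ± 39.4 CPM in KCs labelled KO, and Mmp12, the macrophage elastase, at 49.9 ± 5.48 and 73.3 ± 40.1 CPM. Mmp3, or stromelysin, was at 3.42 CPM in WT HSCs and 14.1 CPM under the KO label (log2 fold change 1.99, SE 0.76, adjusted p = 0.548).

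In the plasminogen list of 8 genes, 8 were tested in ECs, HSCs and KCs and 7 in HEPs. By edgeR 2 passed the threshold in ECs (2.08% of all genes) and 0 in HSCs, KCs and HEPs (0% each). In HSCs, KCs and HEPs, 3, 4 and 0 had an unadjusted p under 0.05 (8.75%, 5.09% and 7.11% of all genes). DESeq2 called 2, 2 and 0 there (2.84%, 0.519% and 0.277%). Plg, which encodes plasminogen, fell by 2.79 on the log2 scale in ECs (554 to 80.4 CPM, adjusted p = 0.0363), and Serpinf2, its antiplasmin, fell by 2.95 (307 to 39.6 CPM, adjusted p = 0.0398). Both stood at 3760 and 1890 CPM in WT hepatocytes, and the hepatocyte markers moved with them. In KCs the urokinase receptor Plaur was at 414 CPM under the KO label against 79.4 CPM (log2 fold change 2.31, SE 0.57) and urokinase itself, Plau, at 156 against 55.4 CPM (log2 fold change 1.43, SE 0.30), both with an adjusted p of 0.933 by edgeR and 0.00362 and 0.0108 by DESeq2.

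Among 13 genes of MMP activation, induction and clearance, 11 were tested in each cell type. By edgeR 2 passed in ECs (2.08% of all genes) and 0 in HSCs, KCs and HEPs (0% each). In HSCs, KCs and HEPs, 2, 1 and 3 had an unadjusted p under 0.05 (8.75%, 5.09% and 7.11% of all genes). DESeq2 called 1, 0 and 0 there (2.84%, 0.519% and 0.277%). Pzp, an alpha-2-macroglobulin-type protease trap, fell by 3.81 on the log2 scale (506 to 36.5 CPM, adjusted p = 0.029) and stood at 3640 CPM in WT hepatocytes. Lrp1, the endocytic receptor that clears MMPs and TIMPs, fell by 1.47 (63.8 to 23.0 CPM, SE 0.23, adjusted p = 0.0379). Lrp1 was at 864 CPM in WT HSCs, 720 CPM in WT KCs and 157 CPM in WT HEPs, so that it was lower in WT ECs than in any of the other WT groups. The Lrp1 call, like all others in ECs, was lost when hepatocyte-enriched genes were removed before the fit. With them, 305 genes passed. Without the KO-labelled EC library 46 or 6, 3 and 58 genes passed. In KCs Furin, a convertase that activates membrane-type MMPs, was at 92.2 CPM under the KO label against 38.6 CPM (log2 fold change 1.20, SE 0.30, adjusted p = 0.933). Of 20 adamalysins and 10 other matrix proteases none passed by edgeR in any cell type. In ECs, HSCs, KCs and HEPs, 17, 19, 15 and 10 adamalysins were tested. Of these, 5, 4, 4 and 1 had an unadjusted p under 0.05 (15%, 8.75%, 5.09% and 7.11% of all genes). DESeq2 called 1, 1, 0 and 0 adamalysins (6.72%, 2.84%, 0.519% and 0.277% of all genes). Of the other proteases 8, 8, 8 and 7 were tested. For them the counts were 2, 2, 0 and 2 and, by DESeq2, 2, 0, 0 and 0. Adamts2, a procollagen peptidase that stood at 404 CPM in WT HSCs, was at 3.89 CPM in ECs labelled KO against 20.2 CPM, and Bmp1, the procollagen C-proteinase, at 3.03 against 18.6 CPM, with 71.4 CPM in WT HSCs and 75.3 CPM in WT HEPs (label log2 fold change -2.61, SE 0.47, adjusted p = 0.0531). Ctsl, the lysosomal protease cathepsin L, was higher instead, at 4030 against 1610 CPM in ECs (log2 fold change 1.33, SE 0.39, adjusted p = 0.181 by edgeR and 0.00201 by DESeq2).

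The genes most like each member other than Mmp19 across the 16 libraries were found by Pearson's r of log2 CPM over 17213 genes, as a description over points that share a cell type and library. For Mmp2 they were Fstl1, Loxl1 and Reln (r 0.987 to 0.978), for Mmp9 the B cell genes Cd22 and Cd37 and Fcrl1 (0.973 to 0.966), and for Mmp13 Slc38a1, Krt80 and Kcna2 (0.944 to 0.925). Mmp14 was nearest to Gja4, Adamts9 and Myo10 (0.966 to 0.961). Timp1 was nearest to Gdf10, Hpse and Igsf10 (0.966 to 0.963), Timp2 to Ocrl, Pip4k2a and Sf3a2 (0.978 to 0.976), and Timp3 to Ltbp4, Spry2 and Apold1 (0.989 to 0.984). Reck was nearest to Mrc2, which encodes a collagen receptor, Fgfr2 and 1200007C13Rik (0.967 to 0.963).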

How the data were processed

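RNA of 16 libraries was analysed, in 8 groups of 2 set by label. The authors deposited raw read counts per Ensembl gene, 1 table for each library. The submitters' processing notes name Trimmomatic 0.32, HISAT2 2.1.0, HTSeq 0.9.1, edgeR and GRCm38, and the annotation release is not given in the sources used here. The series and its samples name different library preparations and no strand setting, so that overlapping genes may share reads. The 5 summary lines of each table were left out. Genes were filtered with filterByExpr, scaled by TMM and tested with the quasi-likelihood test of edgeR 4.0.16 in R 4.3.3, with Benjamini-Hochberg adjustment over all genes tested and a threshold of 0.05. The SE was the absolute log2 fold change divided by the square root of the F statistic. Label differences were fitted within a cell type, cell types over the 8 WT libraries, and interactions over all 16. Levels per kb used exon lengths of GENCODE mouse release 21. Genes alike were found on log2 CPM with a prior count of 2, and those of Mmp19 are not reported here. Alternatives included DESeq2 1.42.0, other scalings and filters, removal of hepatocyte-enriched genes (at least 10 CPM in WT HEPs and 8 times the WT KC mean) and leaving out each library. All 9 members and the pathway genes past the threshold were named, with otherwise the most abundant (at most 3) and those of largest label difference (at most 2) of a list. The members and lists were chosen with earlier results of these data known. Plots used Python 3.11.15 and matplotlib 3.10.9.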

Additional observations from a re-analysis of the deposited data

Results flagged for a closer look

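The label effect on Mmp19 differed between cell types by a test of the difference itself. In ECs Mmp19 was lower under the KO label (log2 fold change -2.85) and in KCs it was higher (1.28), and the difference was -4.14 (edgeR interaction over 16 libraries, adjusted p = 0.0207). Both libraries labelled KO lay below both labelled WT in ECs, as did 24.1% of all genes, and above them in KCs, as did 20.5%. The hepatocyte markers had the same directions. They were lower in ECs for 10 of 10 (median log2 fold change -2.94, 10 past the threshold) and higher in KCs for 10 of 10 (median 0.59). No gene at all passed in KCs. As a share of the WT hepatocyte level, Mmp19 in KCs was 29.2% and 46.8% under the WT label and 76.6% and 111% under the KO label. The markers there were at 5.17% and 8.09%, and at 9.44% and 11.5%. In ECs Mmp19 was at 10.9% and 24.9%, and at 3.99% and 1.03%, with the markers at 11.1% and 23.0%, and at 2.65% and 1.95%. The part of the markers in the difference was not tested.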

How the results depend on the processing

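No paired analysis was possible because no replicate number in the labels is shared between groups, and the labels link no libraries of different cell types to 1 liver. Between labels, the count of members called by edgeR (0 in each cell type) became 3, 1 and 1 in ECs, HSCs and KCs with DESeq2, 3, 2 and 1 with no filter on low counts, and 4, 2 and 3 at an unadjusted p under 0.05, and 1 in ECs with all 16 libraries in 1 fit. Calls over all genes rose as well. In the same order of cell types they were 983, 408 and 72 with DESeq2 and 2192, 1259 and 706 at an unadjusted p under 0.05. With no filter they were 1259 of 23953, 663 of 24592 and 159 of 22595. In ECs 423 of 17214 genes passed with all 16 libraries, against 305 of 14631 in the main fit. Between WT cell types, the 2 members called for ECs against HSCs became 4 with DESeq2, 5 with no filter and 4 with all 16 libraries. The share of all genes went from 10.2% to 18.6%, 11.9% and 26%, respectively. For ECs against KCs the 6 members called became 3 with the KO-labelled libraries, while the share of all genes went from 17.3% to 24.1%. For the test of differing label effects, DESeq2 called 3 (ECs against KCs), 1 (ECs against HEPs) and 2 (HSCs against KCs), and the fit with no filter called 1 for ECs against HSCs, 4 for ECs against KCs, 1 for ECs against HEPs, 2 for HSCs against KCs, 1 for HSCs against HEPs and 1 for KCs against HEPs. The share of all genes under these alternatives was not computed for this test, so that the member counts cannot be set against it. Leaving out each library gave 0 to 1 called members in ECs (1 without WT ECs 38) and 0 in the other cell types. It gave 2 to 3 for ECs against HSCs, 3 to 6 for ECs against KCs (3 without WT ECs 34 or WT KCs 39), 5 to 7 for ECs against HEPs, 5 to 7 for HSCs against KCs, 7 to 8 for HSCs against HEPs and 5 to 7 for KCs against HEPs. For differing label effects it gave 0 to 2 for ECs against KCs, 0 to 1 for HSCs against KCs (1 without KCs labelled KO 27) and 0 for the other pairs. A group left with 1 library was assumed to vary like the others, and more genes then passed the filter. The share of all genes is not set beside the counts from leaving out a library. Those counts therefore describe the fits and cannot be read as results about the members.

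Of 531 values of single members under other settings, 519 kept their sign, and 542 of 561 did when a library was left out. The sign turned with the KO-labelled libraries in place of WT for ECs against HSCs in Mmp13 (-3.08) and Timp3 (-0.10), for ECs against KCs in Mmp2 (-0.15), Timp1 (-0.67), Timp2 (-0.62) and Reck (-1.80), for ECs against HEPs in Reck (-1.49), for HSCs against HEPs in Mmp13 (3.39) and for KCs against HEPs in Reck (0.31). It turned with all 16 libraries for Timp2, ECs against KCs (-0.04), Reck, ECs against HEPs (-0.64), and Mmp13, HSCs against HEPs (0.34). When a library was left out, label estimates ran from -1.12 to 0.44 for Mmp9 and from -0.43 to 0.23 for Mmp14 in ECs, and in HSCs from -0.71 to 0.13 for Mmp2, from -5.37 to 0.67 for Mmp9 and from -0.21 to 0.41 for Mmp14. In KCs they ran from -7 to 0.64 for Mmp2 and from -0.49 to 0.19 for Timp2. In HEPs they ran from -0.34 to 1.24 for Mmp2, from -0.41 to 1.02 for Mmp14, from -0.57 to 0.04 for Mmp19 and from -0.50 to 0.50 for Timp2. Between WT cell types they ran from -0.47 to 1.09 for Mmp2 in ECs against KCs, and for KCs against HEPs from -0.77 to 1.04 for Mmp14 and from -0.37 to 0.93 for Timp1. The cause was not tested. None of these had passed the threshold except Timp1 in ECs against KCs and Reck in ECs against KCs and in KCs against HEPs. Members at or under 3 counts in a group are limited by depth.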
